A study of Homo sapiens with 23 samples.

Results

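Resistant clone 8 was compared with untreated WM989 A6-G3 cells, and then with 6 other resistant clones of the same line. The members were the 6 libraries labelled as clone 8 (3) or untreated (3), of 23 poly(A) RNA libraries in the series. WM989 A6-G3 is a human melanoma line, derived from WM989 through single-cell bottlenecks, so that its cells share recent ancestry. WM989 melanoma cells carry an activating BRAF mutation, and the labels give no engineered change (genotype WT). Clone 8 is 1 colony that grew out under 1 µM vemurafenib, an inhibitor of mutant BRAF, and was then expanded and kept in that dose. Clones 7 and 9 were made and kept the same way, with 3 libraries each. Clones 10, 11, 12 and 13 were kept in a pair of drugs, dabrafenib at 250 nM against BRAF and trametinib at 2.5 nM against MEK, and had 3, 2, 3 and 3 libraries. The untreated group was grown drug-free, so being resistant and being in drug cannot be told apart, and neither can clone and drug where clone 8 is set against clones 10 to 13. With 1 clone there is no replicate of the step by which it arose: its libraries show how far this clone differs, not what vemurafenib resistance does on average.

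BRAF and MEK lie in the MAP kinase cascade, which ends in ERK and drives growth of BRAF-mutant melanoma. Melanoma cells that survive its inhibition are known for losing the pigment program governed by MITF and SOX10 and for taking up mesenchymal, matrix-producing and inflammatory programs. Cells of 1 line can settle into different mixtures of these programs, and clones raised from 1 line let such differences be measured. Levels below are scaled TPM, the length-corrected measure of transcript abundance that was deposited, brought to a common scale between libraries. Differences are in log2(scaled TPM + 1), on which a difference of 1 is more than a doubling of TPM and the change of low genes is understated. TPM keeps no record of sequencing depth, so the depth behind a value is unknown and no counting interval can be given. A gene was called where limma's Benjamini-Hochberg adjusted p, over 15657 genes tested, was under 0.05 and the difference was at least 1 in either direction.

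Replicate 3 of clone 8 stood apart from the other 2 libraries of the clone. Across 13922 genes, which are not independent replicates, its log2 levels correlated at r = 0.960 with replicate 1 and 0.958 with replicate 2, against 0.993 between replicates 1 and 2 and 0.991 to 0.996 among the untreated libraries. Ribosomal protein transcripts made up 28.7% of its TPM, against 18.6% in replicate 1 and 20.7% in replicate 2. Genes with short transcripts were high in it and genes with long ones low: the median log2 difference from replicates 1 and 2 ran from 0.79 over 343 genes whose longest annotated transcript is under 1 kb to -0.305 over 745 genes above 8 kb. The part of these shifts in the results was not tested. Results are therefore also given without replicate 3 where that changes a call or moves a count by more than 1.5 times.

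**Figure D1:**
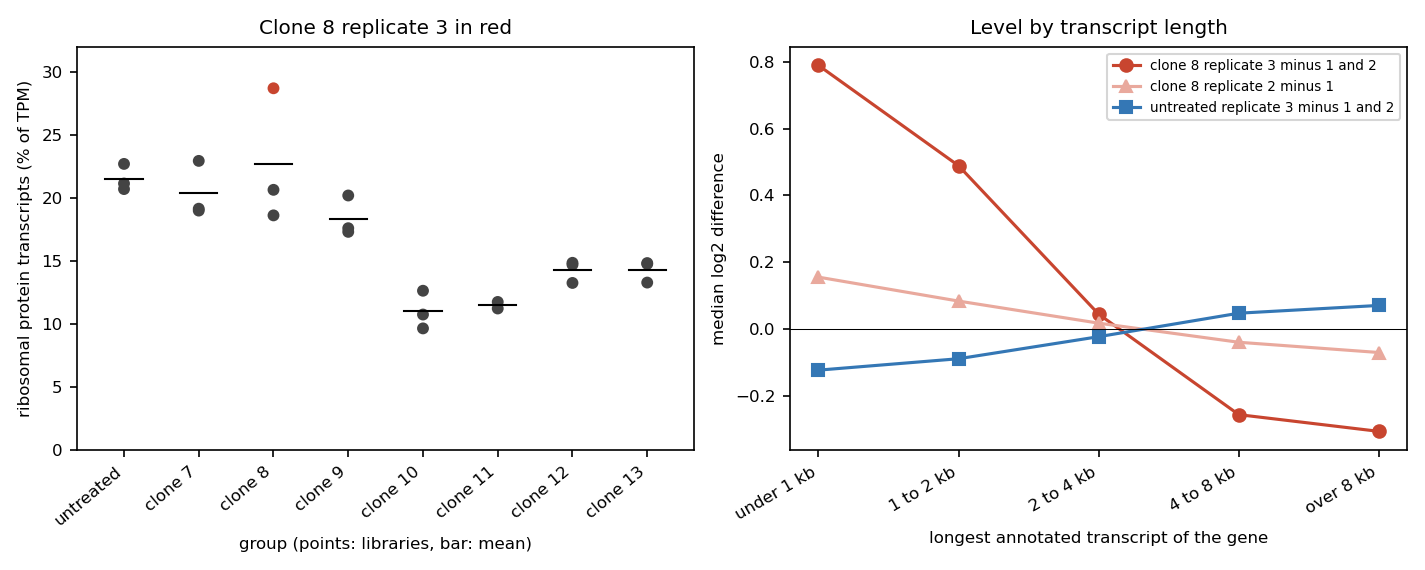
Left: percent of all TPM in ribosomal protein transcripts (vertical axis) for each library of the 8 groups, with a bar at the group mean; clone 8 replicate 3, in red, is at 28.7%, above each of the other 22 libraries. Right: median log2 difference between libraries of 1 group for genes binned by the length of their longest annotated transcript; the line for clone 8 replicate 3 falls from 0.79 under 1 kb to -0.305 over 8 kb, while the lines for clone 8 replicate 2 and untreated replicate 3 stay between -0.12 and 0.16.

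The label calls clone 8 melanoma cells, but its melanocytic markers were far below the untreated level. PMEL, MLANA, TYR, TYRP1, DCT, SOX10 and MITF summed to between 56.9 and 70.75 TPM in clone 8 against 11970 to 12330 in untreated cells, and all 7 were called lower. PMEL, a melanosome protein, carries most of the untreated sum, at 9748 to 10042 TPM against 27 to 34.6 in clone 8. MITF, the master regulator of the pigment program, kept more of its level, at 29, 25.8 and 20 TPM against 111, 127 and 132. SOX10, the transcription factor of the neural crest and melanocyte lineage, was at 467, 465 and 473 TPM in untreated replicates 1 to 3 and at 1.67, 1.58 and 1.12 in clone 8. This loss was shared: the 7 markers summed to between 22.08 and 466.6 TPM in libraries of the other clones, and the median difference of the 7 between clone 8 and those clones was -0.39, against -7.30 between clone 8 and untreated cells. In bulk libraries, fewer cells of a kind and less RNA per cell cannot be told apart. Of the 12 macrophage markers, AIF1, C1QA and C1QB were at 0 in the 3 clone 8 libraries. C1QA and C1QB were at 0 in untreated cells too. CSF1R, the macrophage growth factor receptor, was at 6.23, 6.9 and 5.02 TPM in clone 8, 0.355 to 0.43 in untreated cells and 1.05 (clone 12) to 8.55 (clone 11) in the others, and was called higher than untreated (2.33) and than the others (1.02). PTPRC was the other member called in both. CD163, FCER1G and LYZ went the other way from untreated cells. Their means were 1.86, 3.34 and 0.126 TPM in clone 8 against 3.24, 7.65 and 1.03. Of 9 lymphocyte markers, CD3D, CD2 and MS4A1 were at 0 there. The macrophage list summed to 197.8 to 282.6 TPM in clone 8 and 172.1 to 173.2 in untreated cells. CD68 alone made up most of it, with means of 235 TPM in clone 8, 159 in untreated cells and 380 in the other clones. The lymphocyte list summed to 3.313 to 5.444 TPM in clone 8 and 1.817 to 2.068 in untreated cells. Endothelial markers summed to at most 3.316 TPM in clone 8.

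Against untreated cells, 1729 genes were higher in clone 8 (11% of those tested) and 1454 were lower (9.29%). Much of that was common to the resistant clones, since 763 of the higher and 654 of the lower genes were also called in the same direction in each of the other 6 clones. Those comparisons share the untreated libraries. In the difference between the change of clone 8 and the mean change of the other clones, the untreated level cancels. The untreated libraries enter the test of that difference only through the scaling, the filter and the shared estimate of spread. By that test, 292 genes were higher in clone 8 (1.86%) and 401 were lower (2.56%), so that 42.1% of the calls were higher. With TPM as deposited the same test called 199 higher and 561 lower, or 26.2% higher. The scaling moved the median difference of all genes from -0.15 as deposited to -0.02. Single clones lay at different distances from clone 8: 576 genes were called against clone 7, 791 against clone 9, 1040 against clone 13, 1111 against clone 11, 1368 against clone 12 and 1902 against clone 10.

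**Figure D2:**
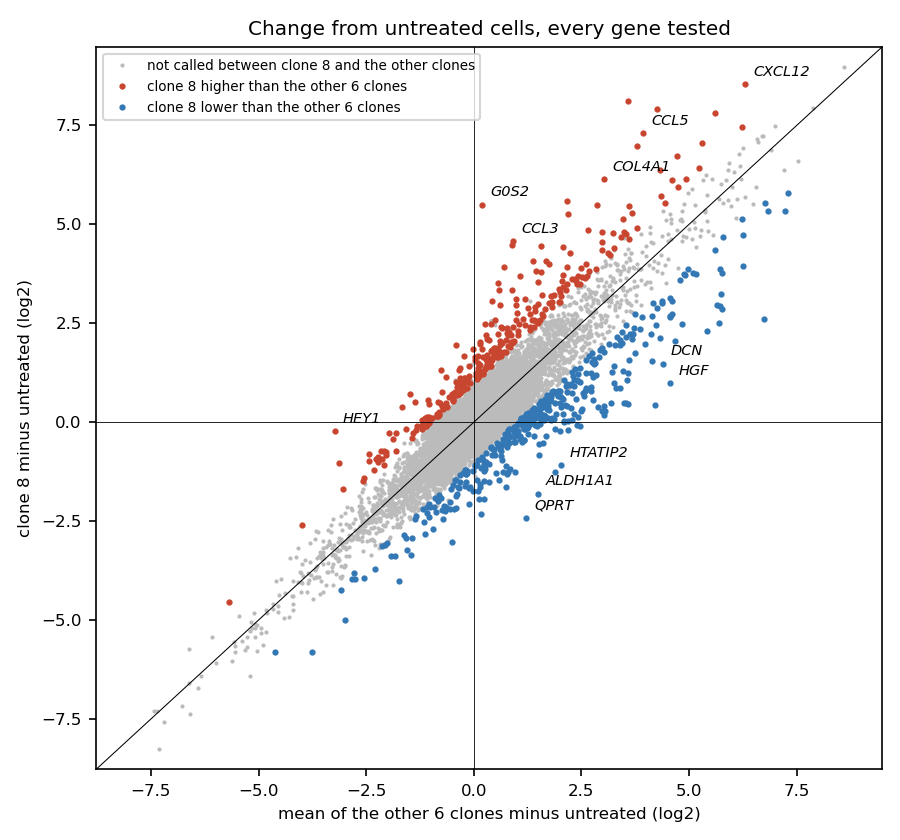
Each point is 1 of 15657 genes: the log2 change of the mean of the other 6 clones from untreated cells (horizontal axis) against that of clone 8 (vertical axis). The diagonal marks equal changes; the 292 red genes are higher and the 401 blue genes lower in clone 8 than in the other clones, and both axes share the untreated libraries, so the tilt of the cloud is not a result.

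A gene was counted as particular to clone 8 where it was called against untreated cells and also, with the same sign, against all 6 other clones taken one by one. There were 25 such higher genes (0.16% of those tested) and 5 lower ones (0.0319%), of which 21 and 5 were still so counted without replicate 3. A wider count took changes called in clone 8 and against the mean of the others that no other clone showed at the threshold: 42 higher (0.268%) and 33 lower (0.211%), of which 25 and 23 remained without replicate 3. Without replicate 1 this wider count was 64 higher and 51 lower.

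G0S2, an inhibitor of the fat-splitting enzyme ATGL that is named for the switch from resting to growing cells, led the higher genes. It was at 0.167, 0.190 and 0.140 TPM in untreated replicates 1 to 3 and at 40.3, 53.2 and 64.7 in clone 8 replicates 1 to 3. The means of the other clones lay between 0.105 (clone 13) and 0.661 (clone 9), so clone 8 stood far above each library of the series while the other clones stayed near the untreated level. The difference from untreated cells was 5.50 ± 0.28 (SE; adjusted p = 4.28e-12) and that from the other clones 5.32 ± 0.21 (adjusted p = 3.33e-12). No other clone was called for it in either direction.

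Receptor, channel and other surface genes were among the leading 15. APLNR, the receptor for apelin, was at 22.6, 23.0 and 19.0 TPM in clone 8 and at 0.017 or less in the untreated libraries. Clone 11, at 3.82 TPM, had the highest mean of the other clones, and clone 8 was 3.58 ± 0.10 above their mean (adjusted p = 7.15e-15). CACNA2D3, an accessory subunit of voltage-gated calcium channels, was at 38.4, 37.5 and 40.2 TPM in clone 8 against at most 0.094 in untreated cells and 0.671 (clone 10) to 11.4 (clone 11) in the others. KCNN4, a potassium channel opened by calcium, was already present in untreated cells, at 7.21, 6.78 and 5.28 TPM. It was at 32.3, 31.3 and 63.6 in clone 8 and no more than 17.9 in the mean of another clone. TPBG, the oncofetal surface protein 5T4, was at 7.41, 7.85 and 5.95 TPM against 0.042 or less in untreated cells and 2.35 or less in the other clones. These groups did not overlap.

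PDLIM1, an adaptor of the actin cytoskeleton, was at 80.0, 79.5 and 107 TPM in clone 8; the other clones also raised it from 0.076 TPM, to between 11.2 and 37.8. PTGS1, the constitutive cyclooxygenase of prostaglandin synthesis, was at 8.62, 9.03 and 6.74 TPM against at most 2.39 in the others. AMTN, which encodes the enamel protein amelotin, was at 6.74, 7.47 and 7.79 TPM in clone 8, was listed at 0 in the untreated libraries, and did not pass 1.01 in the mean of another clone. MT1F, a zinc-binding metallothionein, had 16.8, 17.6 and 33.0 TPM in clone 8 against 11.5, 7.67 and 5.58 in untreated cells, and the other clones were 0.77 below untreated on average. TPRG1, TNFAIP8L3 and FAM110B completed the leading 15 with the chemokines described below. All 15 kept both calls without replicate 3, and in each of them the lowest clone 8 library was above the highest of the other 20 libraries. That lack of overlap is no separate result, since the 15 were chosen by their calls and their difference. Many further genes, VIM and PFN1 among them, also lay above each other library.

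**Figure D3:**
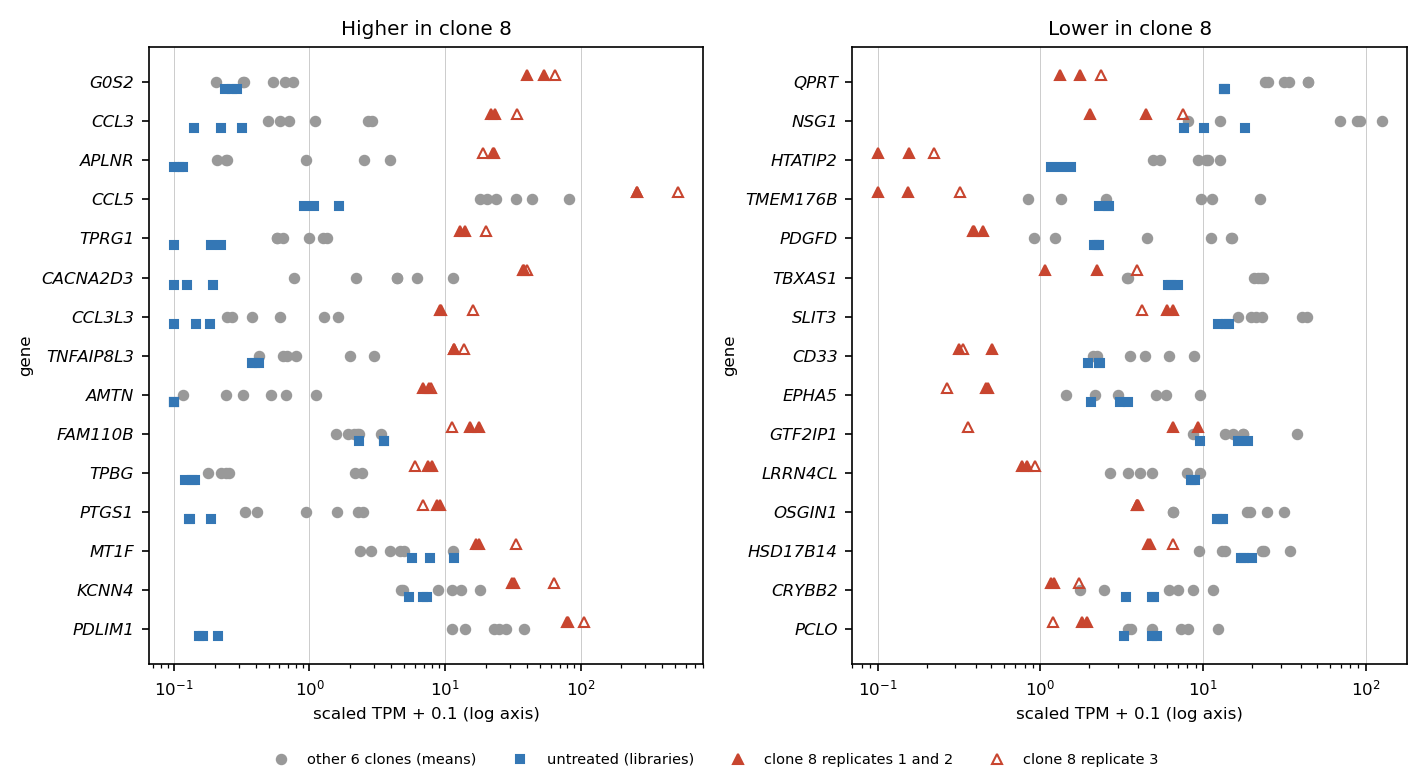
Scaled TPM + 0.1 on a log axis for the 15 higher (left) and 15 lower genes (right) with the largest difference from the other clones among the changes counted above. Squares are untreated libraries, circles the means of the other 6 clones, filled triangles clone 8 replicates 1 and 2 and open triangles replicate 3. On the left the triangles lie to the right of each other mark. On the right they lie to the left for 12 genes when libraries are compared. The genes were chosen by difference, so this separation is no further result.

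QPRT, the enzyme that turns quinolinate from tryptophan into the NAD precursor nicotinate mononucleotide, led the lower genes. It was even in untreated cells, at 13.4, 13.3 and 13.5 TPM, and was at 1.23, 1.65 and 2.27 in clone 8. In the other clones it lay above untreated, between 23.8 TPM (clone 9) and 44.0 (clone 12). Clone 8 was 2.42 ± 0.19 lower than untreated (adjusted p = 2.03e-09) and 3.64 ± 0.14 lower than the other clones (adjusted p = 3.33e-12). HTATIP2, an oxidoreductase described as a suppressor of metastasis, was at 1.24, 1.45 and 1.06 TPM in untreated cells, at 0.055, 0 and 0.123 in clone 8 and at 4.8 to 12.5 in the other clones. Each of the 6 others was called higher than untreated and clone 8 lower. NSG1, a protein of neuronal endosomes, was at 18.1, 7.5 and 10.1 TPM in untreated cells and at 4.35, 1.91 and 7.44 in clone 8. Clone 8 replicate 3 was just below untreated replicate 2, and the other libraries were farther apart. The call against untreated was lost without clone 8 replicate 2 (-0.86), without untreated replicate 1 (-0.93) and when only untreated and clone 8 libraries were fitted, while the difference from the other clones was -3.14 ± 0.28.

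ALDH1A1, a retinaldehyde dehydrogenase used as a marker of drug-tolerant cells, also moved in the opposite direction to the mean of the others. It fell from 3.24, 3.68 and 3.21 TPM to 0.285, 0.237 and 0.223 in clone 8, a difference of -1.81 ± 0.55 (adjusted p = 0.010). The others were split, with 128 TPM in clone 10, 23.2 to 24.5 in clones 9, 12 and 13, and 0.665 and 0.797 in clones 7 and 11. Clone 8 was therefore below 4 of the clones by its own test and not called against clones 7 and 11. These 4 genes, QPRT, HTATIP2, NSG1 and ALDH1A1, were the ones called lower in clone 8 and higher in the mean of the others (0.0255% of genes), and they were the same 4 without replicate 3.

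The other leading lower genes are given next. CD33, a sialic acid-binding receptor of myeloid cells, was at 2.23, 2.19 and 1.86 TPM in untreated cells, 0.215, 0.406 and 0.235 in clone 8 and at least 2.01 in the mean of each other clone. SLIT3, an axon guidance ligand, was at 12.2, 13.7 and 14.3 TPM in untreated cells and 6.41, 5.88 and 4.09 in clone 8, against 16.3 to 43.3 in the others. LRRN4CL, a small membrane protein, was at 8.30 to 8.85 TPM in untreated cells and 0.675 to 0.828 in clone 8, against 2.59 to 9.54 in the others. EPHA5, a receptor for ephrins, was at 1.96 to 3.35 TPM in untreated cells, 0.167 to 0.381 in clone 8 and 1.33 to 9.49 in the others. PDGFD, a platelet-derived growth factor, was at 2.04 to 2.19, 0.283 to 0.346 and 0.817 to 15.1 TPM. TMEM176B, TBXAS1 (thromboxane synthase), OSGIN1, HSD17B14, CRYBB2, PCLO and GTF2IP1 made up the rest. TBXAS1 lost its call against untreated (-0.93) without replicate 2, and PCLO without replicate 3 (-0.93) or untreated replicate 2 (-0.96). GTF2IP1 is a near-identical pseudogene copy of GTF2I, so its level is uncertain. It was at 9.16, 6.40 and 0.259 TPM in clone 8 and lost both calls without replicate 3 (-0.81 and -0.91).

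Clone 8 also lacked, or showed less of, changes that the other clones had in common. Of genes called higher in each of the other 6 clones, 24 (0.153% of those tested) were not called higher in clone 8 and were lower in it than in the mean of the others. Of genes called lower in each of the others, 9 (0.0575%) behaved the opposite way. Without replicate 3 these counts were 21 and 5, with 15 and 4 genes shared. HGF, the ligand of the receptor MET and a known source of resistance to BRAF inhibitors, had the largest gap. It was at 1.15, 1.12 and 0.971 TPM in clone 8, 0.017 to 0.071 in untreated cells, and from 3.93 (clone 11) to 60.3 (clone 12) in the others, a difference from them of -3.57 ± 0.42 (adjusted p = 5.02e-06). KYNU, the kynureninase of tryptophan breakdown, was at 0.411, 0.485 and 0.354 TPM in clone 8 against 1.52 to 23.5 in the others. JAM2, a junctional adhesion molecule, was at 2.33, 3.39 and 2.73 TPM against 12.7 to 24.5, and without replicate 3 it was called higher than untreated (1.01). SERPING1, the inhibitor of the first complement component, was at 0.203 to 0.473 TPM against 2.88 to 12.1. These genes had a smaller rise in clone 8, not none: with a pseudocount of 0.1 in place of 1, HGF was 3.06 above untreated, KYNU 1.69, JAM2 1.51 and SERPING1 1.28, each of them called.

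HEY1, a transcriptional repressor downstream of Notch, was the clearest case of a kept gene. It was at 54.1, 52.8 and 53.5 TPM in untreated cells and 47.5, 46.2 and 43.3 in clone 8, a difference of -0.22 ± 0.39 (adjusted p = 0.67). In the other clones it was between 2.01 (clone 10) and 15.7 (clone 9), called lower in each, and clone 8 was 3.01 ± 0.30 above them (adjusted p = 5.5e-07). Placental cadherin, CDH3, was at 4.35, 4.73 and 3.68 TPM against 7.44 to 7.72 in untreated cells and 0.562 to 1.89 in the others. CD58, the ligand of CD2 on T cells, was at 21.1, 21.8 and 22.2 TPM against 39.9 to 41.3 and 3.13 to 15.7. RAMP1, PCBD1 and NPDC1 had the same pattern with replicate 3 and were called lower than untreated without it (-1.16, -1.15 and -1.19).

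Chemokines, small proteins that draw leukocytes, differed in both directions. Of 19 tested, 9 were higher and 1 lower than untreated, and 4 were higher and 2 lower than the other clones. Over all genes tested, 11% were higher and 9.29% lower than untreated, and 1.86% higher and 2.56% lower than the other clones. These shares stand beside the counts of each list below. The median difference from the others was -0.18, against -0.02 over all genes. CCL5, a chemokine that draws T cells, was at 0.977, 1.55 and 0.808 TPM in untreated cells and at 261, 263 and 525 in clone 8, with the next highest clone, 11, at 81.5. Clone 8 was 7.31 ± 0.29 above untreated (adjusted p = 1.56e-13) and 3.37 ± 0.22 above the others (adjusted p = 3.72e-09). CCL3, an inflammatory chemokine, was at 21.8, 23.2 and 33.8 TPM against at most 0.217 in untreated cells and 0.393 to 2.78 in the others. CCL3L3, a near-identical copy of CCL3, was at 9.02, 9.17 and 15.9 TPM; the estimation can divide reads between the pair, so their separate levels are uncertain. CXCL12, the ligand of CXCR4, was at 534, 535 and 604 TPM, against 177 to 352 in 5 of the other clones and 3.19 in clone 11. CXCL2 and CXCL14 went the other way, with 0.899 to 1.46 and 0.572 to 1.51 TPM in clone 8 and 1.2 (clone 10) to 10.2 (clone 13) and 0.132 (clone 7) to 47.4 (clone 10) in the others. CXCL14 lost its call without clone 8 replicate 1 (-1.72) and without replicate 2 (-1.72).

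Interferon-stimulated genes are switched on through STAT and IRF factors and limit virus growth. Of 48 tested, 43 were higher in clone 8 than in untreated cells, with a median of 2.80 against -0.01 over all genes. That was the second highest of the 7 clones, between 2.96 in clone 11 and 2.68 in clone 10, with the lowest in clone 7 at 1.92. Against the other clones 8 were higher, 1 was lower and 39 were not called (1.86% higher and 2.56% lower over all genes). Against the other clones the counts were the same without replicate 3, although ISG15 lost its call and SAMD9 gained one.

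The interferon-stimulated response element, a site bound by these factors, is shown here in the promoters of 4 members called against the other clones, since the group moved together against untreated cells. Sequences are RefSeq's (GRCh38.p14), from 250 bases before to 50 bases after the annotated start, 5′ to 3′ on the strand of the gene. Capitals mark matches to GAAA, 2 bases of any kind and GAAA again, on either strand, with overlapping matches joined. ISG15 lies at chr1:1013247-1013546, ISG20 at chr15:88638766-88639065, IFITM1 at chr11:313790-314089 and IFI27 at chr14:94110486-94110785, each on the plus strand.
ISG15: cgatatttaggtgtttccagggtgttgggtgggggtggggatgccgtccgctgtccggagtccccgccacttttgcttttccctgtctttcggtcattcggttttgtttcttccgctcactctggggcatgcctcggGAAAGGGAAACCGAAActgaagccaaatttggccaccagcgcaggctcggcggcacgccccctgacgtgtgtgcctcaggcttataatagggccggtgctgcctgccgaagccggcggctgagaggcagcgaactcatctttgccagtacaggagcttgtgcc
ISG20: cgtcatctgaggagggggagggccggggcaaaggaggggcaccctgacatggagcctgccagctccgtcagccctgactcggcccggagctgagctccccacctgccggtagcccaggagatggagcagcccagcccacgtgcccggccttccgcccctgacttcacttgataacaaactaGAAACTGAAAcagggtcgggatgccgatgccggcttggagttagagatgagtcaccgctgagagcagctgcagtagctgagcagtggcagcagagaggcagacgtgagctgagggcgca
IFITM1: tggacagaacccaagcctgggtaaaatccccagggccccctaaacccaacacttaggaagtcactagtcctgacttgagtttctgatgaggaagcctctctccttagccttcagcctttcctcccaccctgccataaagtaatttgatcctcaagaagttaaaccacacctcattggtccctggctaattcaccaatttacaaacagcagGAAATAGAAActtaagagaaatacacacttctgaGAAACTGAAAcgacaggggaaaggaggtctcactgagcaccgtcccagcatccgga
IFI27: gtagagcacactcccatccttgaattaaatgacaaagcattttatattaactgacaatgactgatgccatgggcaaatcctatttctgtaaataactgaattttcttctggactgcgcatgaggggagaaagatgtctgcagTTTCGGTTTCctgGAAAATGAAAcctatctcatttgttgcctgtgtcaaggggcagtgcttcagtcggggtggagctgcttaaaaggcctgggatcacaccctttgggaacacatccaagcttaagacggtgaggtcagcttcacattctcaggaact
The motif was found in 26 of the 36 list members with a promoter in the table (72.2%), and in 3.57% of all 35116 promoters of this length. It was in 4 of the 6 matched members that were called between clone 8 and the other clones. IFI27, which was lower in clone 8, held 2 matches just as ISG15 and IFITM1, which were higher, did.

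OASL, a relative of the oligoadenylate synthetases that boosts RIG-I signaling, was at 1.03, 1.11 and 1.28 TPM in untreated cells and 89.8, 95.0 and 96.5 in clone 8. The other clones lay between 14.8 (clone 9) and 37.4 (clone 11), and clone 8 was called above each of them, by 1.87 ± 0.16 on average (adjusted p = 9.45e-08). ISG20, an RNA exonuclease, was at 15.9, 15.7 and 14.2 TPM in untreated cells and 25.1, 30.8 and 54.5 in clone 8, against 8.44 to 11.9 in the others. Clone 8 was the 1 clone called higher for it, by 1.14 ± 0.28, and that call was lost without replicate 3 (0.83) while the difference from the others was kept (1.47). ISG15, a ubiquitin-like modifier, was at 75 to 84.1 TPM in untreated cells and at 1117, 1346 and 2889 in clone 8; its difference from the others went from 1.38 to 0.97 without replicate 3. DDX58 encodes the RNA sensor RIG-I and was at 34.3, 33.9 and 30.6 TPM in clone 8, 2.19 to 2.23 in untreated cells and 9.20 to 21.5 in the others. IDO1, which starts tryptophan breakdown, was low but at 1.96, 2.01 and 2.05 TPM still above the 0.486 of the highest other clone. IFI27, a mitochondrial protein induced by interferon alpha, was at 43.2, 59.9 and 105 TPM, far above the 1.14 to 2.00 of untreated cells yet below the 118 to 286 of the other clones. IFITM1, IFIT2 and RSAD2 were the further higher members, at 1.25, 1.20 and 1.12 above the others.

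Collagens changed in a different mixture in clone 8. Of 24 tested, 19 were higher and 1 lower than untreated, and 5 were higher and 5 lower than the other clones (4 and 4 without replicate 3). Over all genes 1.86% were higher and 2.56% lower than the other clones. The median difference of the collagens from the others was 0.11. The paired chains of basement membrane collagen IV led the higher ones. COL4A1 was at 0.015, 0.156 and 0.102 TPM in untreated cells and 95.2, 89.6 and 51.1 in clone 8, and COL4A2 at 0.081, 0.251 and 0.178 and 179, 169.98 and 104. In the other clones COL4A1 ranged from 0.206 (clone 12) to 70.8 (clone 11), a mean above clone 8 replicate 3. COL5A3, a chain of collagen V, was at 99.6, 95.3 and 63.2 TPM, above 5 clones by test and near the 115 of clone 11. COL18A1 and COL7A1 were also higher, by 1.19 and 1.29, COL7A1 not without replicate 3 (0.83). Among the lower members, COL3A1, the chain of collagen III, was at 11.6, 10.6 and 8.87 TPM in clone 8 and from 11.4 (clone 10, not called apart) to 347 (clone 9) in the others, and COL14A1 at 19.9, 18.5 and 10.9 against 41.1 to 224. COL6A3, COL1A2 and COL8A1 were the other lower ones. COL1A1, the main chain of collagen I, was at 4926, 4070 and 2696 TPM against 5.14 to 8.80 in untreated cells, with a difference of 0.38 from the other clones that was not called.

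Matrix glycoproteins, proteases and adhesion receptors held further differences. Of 25 glycoproteins and proteoglycans, 2 were higher and 5 lower than in the other clones (1.86% and 2.56% over all genes). MFAP4, a microfibril protein, had the largest difference of them: 7.56, 8.65 and 6.08 TPM in clone 8, 0.265 to 0.414 in untreated cells and 12.4 (clone 7) to 391 (clone 13) in the others, or -4.12 ± 0.11 (adjusted p = 7.15e-15). Decorin, DCN, was at 7.33, 8.12 and 6.02 TPM against 24.2 to 116, and LUM, lumican, at 111, 108 and 147 against 172 to 577. Fibronectin, FN1, was higher, at 13691, 12070 and 12477 TPM against 1320 to 10231. Of 26 proteases and inhibitors, 4 were higher and 6 lower (3 and 4 without replicate 3). MMP2, the gelatinase A, was at 292, 296 and 371 TPM, above the 18.0 to 21.0 of untreated cells and below the 792 to 2464 of the others. MMP1 and MMP3 were lower by 1.79 and 1.68, and MMP9 was higher by 1.33.

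Among 28 integrins and laminins, 2 were higher and 7 lower than in the other clones (3 and 5 without replicate 3). Over all genes 1.86% were higher and 2.56% lower. ITGA5, the alpha chain of the fibronectin receptor, was at 703, 636 and 498 TPM in clone 8 against 6.57 to 8.98 in untreated cells; the others ranged from 85.5 (clone 10) to 2006 (clone 11), so clone 8 was called above 5 of them and below 1. LAMA4, a laminin alpha chain, was at 31.2 to 33.1 TPM in untreated cells and 6.95, 6.96 and 8.88 in clone 8, against 6.25 (clone 7, also called lower than untreated) to 130 (clone 10) in the others. ITGA4 was at 10.2, 10.5 and 3.53 TPM; its call against untreated was lost without replicate 3 (-0.67) while that against the others was kept (-1.42). Of 14 cadherins and desmosomal genes, 5 were higher and 2 lower than in the others. N-cadherin, CDH2, was at 35.3, 32 and 22 TPM in clone 8 and 12.8 to 13.0 in untreated cells, against 1.86 to 25.9 in the others, none of which was called higher than untreated. CDH13, a cadherin held by a lipid anchor, was 1.39 above the mean of the others and PCDH18 1.58 below it. CDH13 was at 25.1 to 26.6 TPM in clone 8 and 3.18 to 8.99 in clones 10 to 13. Clones 7 and 9, also kept in vemurafenib, had more of it, at 50.6 and 34.3, and were not called apart from clone 8. CDH11 was 1.16 lower, a call lost without replicate 3 (-0.70).

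**Figure D4:**
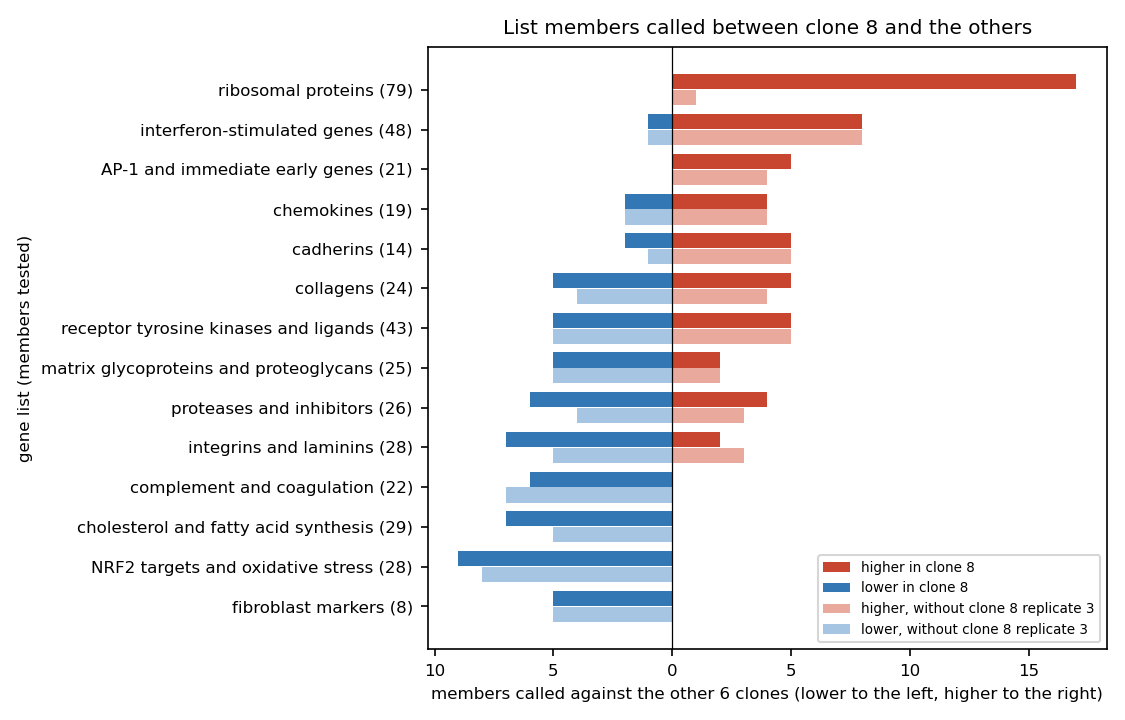
Number of members of 14 gene lists called higher (right) or lower (left) in clone 8 than in the mean of the other 6 clones; list sizes tested are in brackets, and pale bars leave out clone 8 replicate 3. Ribosomal proteins go from 17 to 1 without that library, while lists such as interferon-stimulated genes (8 and 1) and chemokines (4 and 2) keep their counts.

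By median, but not in each member, markers of fibroblasts were less raised in clone 8 than in the other clones. Of the 8 tested of 10, 7 were higher than untreated (6 without replicate 3, LUM losing its call) and 5 were lower than in the other clones, with a median change from untreated of 1.70 in clone 8 and of 3.25 to 5.28 in the others. The 5 were PDGFRA, DCN, LUM, COL3A1 and PDPN. The other 3 tested, COL1A1, FAP and DPT, were not called between clone 8 and the others. Their means were 3897, 109 and 2.2 TPM in clone 8, above the 3229, 92.2 and 1.58 of the other clones. The summed level of the whole list was 3017 to 5156 TPM in clone 8, 59.44 to 68.96 in untreated cells and 2118 to 7605 in the others, with COL1A1 making up most of it in clone 8 and LUM most of it in untreated cells. The part of this marker list in the matrix results was not tested. Complement and coagulation genes had a median change of 1.89 in clone 8, 1.25 in clone 11, 1.98 in clone 7 and up to 2.86 in clone 9. Of 22 tested, 15 were higher and 1 lower than untreated (12 and 1 without replicate 3). Against the other clones 6 were lower (7 without replicate 3), with a median difference of -0.56. Over all genes 11% were higher than untreated and 2.56% lower than the other clones. F3, tissue factor, which starts coagulation, was at 15.2, 14.8 and 11.3 TPM in clone 8, 0.767 to 1.08 in untreated cells and 13.1 (clone 7) to 204 (clone 11) in the others. Clusterin, CLU, was at 35.1, 39.9 and 37.5 TPM against 12.8 (clone 11) to 384 (clone 9). C1S, a protease of the first complement component, was at 218, 218 and 196 TPM and 1.13 below the others.

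Growth factor receptors and their ligands differed from the other clones in both directions. Of 43 tested, 22 were higher and 5 lower than untreated. Against the other clones 5 were higher and 5 lower, as without replicate 3, with a median difference of -0.05. Over all genes 1.86% were higher and 2.56% lower than the other clones. NTRK3, the receptor for neurotrophin 3, was at 29.2, 30.9 and 31.6 TPM in clone 8 against at most 0.166 in untreated cells and 0.119 (clone 10) to 20.5 (clone 9) in the others. ROR2, a receptor for WNT5A, was at 17.6, 16.0 and 17.2 TPM against 0.723 to 10.9. Epiregulin, EREG, an EGFR ligand, was at 11.1, 10.8 and 9.35 TPM, above 4 clones and below clone 7, at 30.9. On the lower side stood HGF and PDGFD, described above, and FGF7, at 8.91, 8.30 and 2.98 TPM against 8.32 to 77.6. PDGFRA was at 5.90, 5.95 and 4.93 TPM, above the 0.772 to 1.20 of untreated cells and 1.98 below the others. DDR1, a receptor for collagen, was at 14.9 to 15.4 TPM in untreated cells and 6.04, 6.84 and 6.85 in clone 8; no other clone was called lower. The resistance markers AXL and EGFR rose by 5.74 and 3.34 from untreated cells and were not called between clone 8 and the others (0.34 ± 0.24, adjusted p = 0.309, and 0.26 ± 0.17, adjusted p = 0.262).

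Cholesterol and fatty acid synthesis genes were mostly lower in clone 8 than in untreated cells, and 7 were lower than in the other clones. Of 29 tested, 18 were lower and 1 higher than untreated, with a median change of -1.49, the lowest of the 7 clones, which otherwise ran from -0.98 (clone 7) to -0.09 (clone 12). The 7 lower than in the other clones became 5 without replicate 3 and 10 with TPM as deposited, and the median difference was -0.76. Over all genes 9.29% were lower than untreated and 2.56% lower than the other clones. MSMO1, a sterol demethylase, was at 49.6, 44.7 and 46.4 TPM in untreated cells, 12.2, 9.82 and 12.6 in clone 8 and 22.0 to 95.4 in the others, or -2.06 ± 0.23 (adjusted p = 2.39e-06). SCD, which puts the double bond into stearate, was at 392 to 451 TPM in untreated cells, 156, 149 and 104 in clone 8 and 195 to 804 in the others. DHCR7, the last enzyme of cholesterol synthesis, was at 275 to 297 TPM in untreated cells, 64.3, 63.8 and 51 in clone 8 and 68.6 (clone 7) to 322 (clone 10) in the others. MVD was at 11.1, 14.4 and 18.7 TPM against 49.5 to 55.5 in untreated cells and was called lower in no other clone. CYP51A1 and HMGCS1 were lower than the others by 1.09 and 1.05, calls that were lost without replicate 3 (-0.96 and -0.93), and INSIG1, a sterol sensor that was not called against untreated cells (-0.31), by 1.28. The sterol response letters TCACNCCAC were in 1 of 23 matched promoters of the list (4.35%) and in 1.13% of all promoters.

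Targets of NRF2, the transcription factor that answers oxidative stress, were near the untreated level in clone 8, as in clone 11: their median change was 0.31 in clone 8, 0.30 in clone 11 and up to 1.28 in clones 10 and 13. Of 28 tested, 6 were higher and 1 lower than untreated (4 and 1 without replicate 3). Against the other clones 9 were lower (8 without replicate 3), with a median difference of -0.71. Over all genes 11% were higher than untreated and 2.56% lower than the other clones. SRXN1, sulfiredoxin, was at 29, 30.1 and 29.3 TPM in untreated cells and 29.5, 31.9 and 27.7 in clone 8, while the others had 39.3 to 122; clone 8 differed from untreated by 0.01 ± 0.10 and from the others by -1.35 ± 0.08 (adjusted p = 4.75e-10). SLC7A11, the cystine importer, was at 6.78, 6.34 and 5.78 TPM against 8.64 to 9.39 in untreated cells and 5 (clone 7) to 51.2 (clone 10) in the others. FTL, the ferritin light chain, was at 2339, 2569 and 3680 TPM against 2760 to 3224 and 3710 to 11787. The aldo-keto reductases AKR1B10 and AKR1C3 were 2.69 and 2.03 below the others; they belong to a family of similar sequences, so their levels are uncertain. OSGIN1, an oxidative stress response gene, was at 3.85, 3.85 and 3.90 TPM, below the 12.1 to 13.2 of untreated cells. AKR1B1 was 1.33 lower than in the others.

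TXNRD1, thioredoxin reductase, and ME1, malic enzyme, were the remaining 2 of the 9, and their promoters are shown because they were the called members that held the letters of the antioxidant response element, TGACNNNGC. Both rose from untreated cells, by 1.74 and 1.22. TXNRD1 was at 200.4, 192 and 121 TPM in clone 8 and 268 to 473 in the others, and ME1 at 14.2, 12.6 and 10.3 against 12.4 to 62.2. TXNRD1 lost its call against the others without replicate 3 (-0.77). The promoters lie at chr12:104215529-104215828 (TXNRD1, plus strand) and chr6:83431002-83431301 (ME1, minus strand) in GRCh38.p14, with matches on either strand in capitals.
TXNRD1: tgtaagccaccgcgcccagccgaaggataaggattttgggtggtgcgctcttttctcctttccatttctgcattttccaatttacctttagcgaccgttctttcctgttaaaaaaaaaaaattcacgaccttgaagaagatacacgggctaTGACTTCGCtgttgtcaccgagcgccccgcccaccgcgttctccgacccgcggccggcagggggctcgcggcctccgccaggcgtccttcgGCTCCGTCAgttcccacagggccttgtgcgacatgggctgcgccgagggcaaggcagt
ME1: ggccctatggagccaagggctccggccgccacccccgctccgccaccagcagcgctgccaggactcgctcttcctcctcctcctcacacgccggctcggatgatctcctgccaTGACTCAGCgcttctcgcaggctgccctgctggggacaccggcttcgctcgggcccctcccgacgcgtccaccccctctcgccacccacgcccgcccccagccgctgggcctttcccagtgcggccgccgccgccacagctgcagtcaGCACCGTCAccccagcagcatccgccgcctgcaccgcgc
The letters were in 7 of 24 matched promoters of the list (29.2%) and in 13.3% of all promoters.

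Lipid storage and tryptophan genes gave the setting of G0S2 and QPRT. Of 25 lipid storage and lipolysis genes, 2 were higher (G0S2 and FABP5) and 4 lower than in the other clones. Over all genes 1.86% were higher and 2.56% lower. FABP5, a fatty acid carrier, was at 97.5, 109.92 and 214 TPM, within reach of the 162 to 204 of untreated cells, while the others were at 24.4 to 104. ACSL1, which activates fatty acids, was at 13.1 to 13.5 TPM in untreated cells and 5.81, 5.95 and 5.37 in clone 8, against 8.87 to 33 in the others, and was called lower in no other clone. PNPLA3, a lipase of fat droplets, was at 5.56, 4.79 and 4.81 TPM against 17.9 to 19.4 in untreated cells and 8.41 to 24.2 in the others. LPIN1 and PPARG were lower than the others by 1.15 and 1.20. Of 16 NAD and tryptophan genes, 1 was higher (IDO1) and 3 were lower (QPRT, KYNU and TDO2). TDO2, the liver-type tryptophan dioxygenase, was at 29.7, 28.0 and 21.3 TPM, above the 2.45 to 3.04 of untreated cells and in the range of the others, from 23.5 (clone 11) to 255 (clone 13); it was called below 4 of them. NNMT, which methylates nicotinamide, rose by 6.32 and was not called against the others.

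Immediate early genes, which ERK and stress kinases induce, were raised most in clone 8 by median: 2.51 over 21 genes against 1.25 (clone 10) to 2.15 (clone 7) in the others. Of them 15 were higher and 3 lower than untreated. Against the other clones 5 were higher (4 without replicate 3, 2 with TPM as deposited), where 1.86% of all genes were. EGR2 was at 25.2, 24.9 and 14.0 TPM in clone 8, 0.596 to 0.765 in untreated cells and 3.00 to 24.3 in the others. BATF3 was at 10.7, 12.5 and 20.9 TPM against 2.01 to 14.9. These 2 were the members that were called under both of those alternatives. FOSL1, a partner of JUN, was at 248, 245 and 261 TPM against 62.4 to 67.0 in untreated cells and 82.2 to 209 in the others, KLF4 was 1.03 and NR4A2 1.00 higher than the others, and these 3 lost the call with TPM as deposited (0.97, 0.86 and 0.86). KLF4 and NR4A2 also lost it without clone 8 replicate 1 or 2.

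Of 20 genes that report MAP kinase output, 6 were higher and 8 lower than untreated (11% and 9.29% over all genes). Against the others 2 were higher and 1 lower (1.86% and 2.56% over all genes). DUSP6, a phosphatase of ERK that ERK induces, was at 114, 126 and 133 TPM in untreated cells and 265, 286 and 113 in clone 8, so that replicate 3 alone lay at the untreated level. Clone 7, kept in the same drug, was at 271 TPM, clone 9 at 159 and clones 10 to 13 at 34.8 to 90.1. Clone 8 was called above 3 of the 6. DUSP6 was 1.22 above the mean of the other clones, and 1.65 without replicate 3. It was not called without replicate 1 (1.03), without replicate 2 (0.98) or with TPM as deposited (1.04). SPRY1, an inhibitor of receptor kinase signaling, was at 38.3 to 42.0 TPM in untreated cells and 3.57, 3.38 and 4.69 in clone 8, against 3.18 (clone 11) to 31.6 (clone 9) in the others. It was 1.04 below the others, just over the size required, and was not called without replicate 1 or without replicate 2. SPRY4 fell by 3.20 in clone 8 and was 0.23 lower than in the others, which was not called (adjusted p = 0.266). CCND1, cyclin D1, was at 129.65 to 133 TPM in untreated cells and 323, 326 and 332 in clone 8, a rise of 1.30 ± 0.16. The others had 139 to 225, with none called higher, but the difference of clone 8 from them, 0.81, was under the size required. Of 35 cell cycle genes, 15 were higher than untreated and 2, CCNB2 and AURKB, were higher than in the others, by 1.02 and 1.01; both calls were lost without replicate 3 and with TPM as deposited.

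Secreted signals of other families followed no single direction. BMP4 was at 12.2, 12.4 and 12.4 TPM in clone 8 and at most 0.095 in untreated cells, with 6.72 in clone 7, 4.40 in clone 9 and 0.683 or less in the 4 dabrafenib/trametinib clones; clone 8 was 2.63 ± 0.10 above the mean of the other clones (adjusted p = 3.33e-12). BMP7 was at 3.79 to 4.88 TPM in untreated cells and fell to 0.358, 0.896 and 0.143, against 0.312 (clone 11, also called lower) to 8.06 (clone 9) in the others. FZD8, a WNT receptor, was at 9.53, 10.1 and 7.22 TPM against 0.673 to 4.70 in the others. SFRP4, a WNT antagonist, was at 5.79, 6.31 and 5.44 TPM against 4.30 (clone 11) to 317 (clone 10), or -3.13 ± 0.14. Netrin-4, NTN4, was at 15.5, 15.6 and 9.89 TPM against 0.024 or less in untreated cells and 0.060 to 13.9 in the others. IL33, an alarmin, was at 3.00, 2.77 and 2.90 TPM, above the 1.36 to 1.92 of untreated cells, while the other clones had 0.065 to 0.555; the difference from them was 1.62 ± 0.09 (adjusted p = 5.81e-10) and that from untreated, 0.56, was under the size required. LIF, a cytokine of the IL-6 family, was at 11.1, 11.9 and 5.94 TPM against 11.7 to 91.4. PTX3, a soluble pattern receptor, was at 18.4, 20.4 and 19.1 TPM against 20.5 to 127, and TNFAIP6, a hyaluronan-binding protein, at 17.2, 17.7 and 21.8 against 2.96 to 14.0.

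For ribosomal protein genes the number of calls turned on replicate 3. Of 79 tested, 17 were higher than in the other clones (1.86% over all genes), but 1 without replicate 3 and 4 with TPM as deposited. RPL26 was that 1, at 9479, 10312 and 17603 TPM in clone 8, 6670 to 7963 in untreated cells and 2627 to 8265 in the others. The median change of the list from untreated was -0.02 in clone 8, -0.17 in clone 7 and -0.41 in clone 9, the vemurafenib clones. In clones 10 to 13 it was between -1.30 and -0.81. The median difference of clone 8 from the other clones was 0.765, and 0.415 without replicate 3. The share of all TPM in ribosomal proteins was 22.7% ± 5.34 (SD, n = 3) in clone 8 and 21.5% ± 1.05 in untreated cells (exact permutation test, two-sided, p = 1); without replicate 3 it was 19.6%. In the other clones the mean ribosomal protein share was 11% to 20.4%. Mitochondrially encoded transcripts made up 9.69% ± 2.75 in clone 8 and 20.9% ± 0.31 in untreated cells, with no overlap (exact permutation test, two-sided, p = 0.1, the smallest that 3 against 3 allows). Without replicate 3 the mitochondrial share of clone 8 was 11.2%. The lower share was common to the resistant clones, with means of 11.1% to 14.7% in the others. Of the 13 mitochondrially encoded genes, 10 were lower than untreated (6 without replicate 3), where 9.29% of all genes were. Their median difference from the other clones was -0.30, and -0.17 without replicate 3.

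Chromosomes differed in their median level between clone 8 and the others, which is given as a description with no test because the genes of a chromosome are not replicates. Over 9954 genes with at least 5 TPM and a chromosome in RefSeq, the 341 genes of chromosome 4 had a median of -0.40 against the mean of the other clones, and between -0.44 and -0.29 against each clone alone. On chromosome 4, 58.9% of genes were below each of the 6 clone means, against 19.4% over all chromosomes. The 492 genes of chromosome 16 had a median of -0.32, from -0.37 to -0.26 against single clones, with 55.7% below all 6. Chromosomes 15, 9 and 17 lay the other way, at 0.29, 0.26 and 0.23, with 44.6%, 41.9% and 40.2% of genes above all 6 clones, against 22.6% overall. Against untreated cells, chromosome 16 was at -0.295 in clone 8 and 0.0043 in the mean of the others, whereas chromosome 4 was at -0.06 in clone 8 and 0.26 in the others. Without replicate 3 the difference from the others was -0.36 for chromosome 4 and -0.37 for chromosome 16. Several genes named above lie there: QPRT, OSGIN1 and MVD on chromosome 16, and NSG1, EPHA5, MSMO1, SLC7A11, ACSL1 and SPRY1 on chromosome 4. Genes higher than in the mean of the other clones lie there too: AMTN and EREG on chromosome 4 and MT1F, CDH3 and CDH13 on chromosome 16. CCL3, CCL3L3 and CCL5 lie on chromosome 17.

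**Figure D5:**
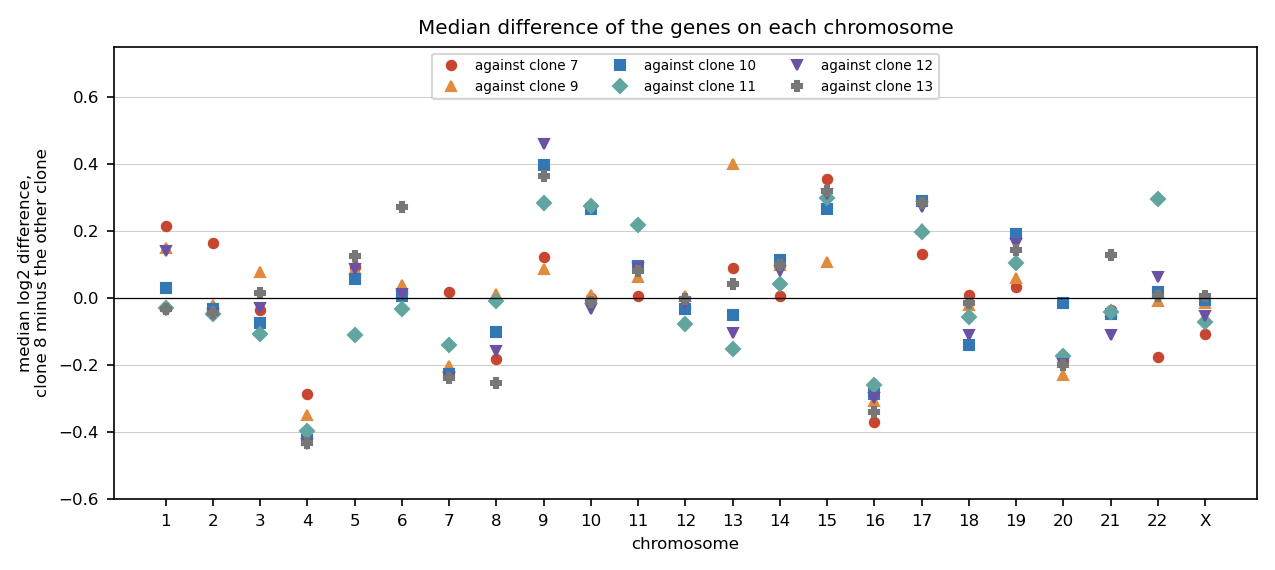
Median log2 difference between clone 8 and each of the other 6 clones (vertical axis, 1 symbol per clone) for the genes of each chromosome (horizontal axis). Chromosomes 4 and 16 lie below 0 against each clone, from -0.44 to -0.29 and from -0.37 to -0.26, and chromosomes 9, 15 and 17 above 0; chromosome 20 is also below 0 and 11, 14 and 19 above it, closer to 0, and on the rest the symbols fall on both sides.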

How the data were processed

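Poly(A) RNA of 23 libraries was sequenced in read pairs, per the labels' protocols, which also state that samples were randomized before extraction. The deposited table holds TPM for 35438 genes, scaled to the same total in each library; per the submitters' processing notes the authors used kallisto and hg19, and no source used here states versions, annotation or filters. The labels call replicates biological without saying what separated them, so p-values measure the spread between these libraries, which may be technical.

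TPM was scaled with trimmed-mean factors (30% of log ratios and 5% of levels trimmed, 10822 genes; 0.743 to 1.14), filtered to at least 1 TPM in at least 2 libraries, and analysed as log2(scaled TPM + 1) with limma 3.58.1 in R 4.3.3, with trend, in 1 fit of 8 groups that was tested on simulated data. The mean of the other clones weights each clone equally. Medians over lists are compared with all 15657 genes; no set test was run.

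Members and lists were chosen with earlier results of these data known. Named genes were up to 15 each way among changes the other clones lack or show less, by difference, with at least 4 TPM in the higher group; up to 8 each way among changes clone 8 lacks; up to 6 per list; and a fixed panel. AKR1B1, COL1A2, COL7A1, COL8A1, COL18A1, DDR1, EREG, HMGCS1, IFIT2, ME1, RSAD2, SAMD9 and TXNRD1 fall outside that rule and were chosen after their values were seen. Promoters were matched by symbol. Alternatives covered scaling, filter, pseudocount, model, replicate block and left-out libraries; lists and chromosomes without replicate 3 or unscaled were added after seeing the data.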

Additional observations from a re-analysis of the deposited data

Results flagged for a closer look

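For 4 genes clone 8 was called on the opposite side of untreated cells from the mean of the other 6 clones. The difference between those changes is given with limma's adjusted p. It adds no separate support, because calls on opposite sides already make that difference large. QPRT was 2.42 below untreated cells in clone 8 and 1.21 above them in the other clones, a difference of -3.636 (log2; adjusted p = 3.33e-12). HTATIP2 differed by -3.11 (adjusted p = 3.12e-09), from -1.08 in clone 8 and 2.02 in the others. NSG1 differed by -3.137 (adjusted p = 1.29e-07), from -1.26 and 1.88. ALDH1A1 differed by -3.292 (adjusted p = 1.07e-05), from -1.81 and 1.48, with clones 7 and 11 near clone 8.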

How the results depend on the processing

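No value changed sign among the alternatives run. With a pseudocount of 0.1, 476 genes were higher and 692 lower in clone 8 than in the other clones, 20 were lower than in each of them, and 37 rises of the other 6 clones were not called in clone 8. With TPM as deposited that last count was 38, and with a filter at 5 TPM the higher changes that the other clones lack numbered 25. Leaving out 1 library of clone 8 or untreated at a time gave 1657 to 1870 genes higher and 1378 to 1592 lower than untreated, and 261 to 367 higher and 372 to 467 lower than the other clones. It gave 24 to 35 higher and 5 to 7 lower than each clone, 31 to 64 higher and 25 to 51 lower changes that the others lack, and 21 to 28 rises and 5 to 9 falls that clone 8 lacks. Without replicate 1 the changes the others lack were 64 and 51, and without replicate 3 the falls that clone 8 lacks were 5 and the ribosomal protein share was 19.63%. Of 492 differences of named genes, 30 lost and 8 gained a call without replicate 3, and 17 lost one with TPM as deposited; the cause was not tested. Deviations of same-numbered clone 8 and untreated libraries correlated at -0.50, 0.29 and -0.47. Libraries with different numbers were not compared, so whether replicate numbers pair the samples cannot be told from these values. With the replicate number as a block, 1733 genes were higher than untreated, and 295 were higher and 403 lower than the other clones, and NR4A2 (0.97) lost its call. TPM gives no depth, so low levels carry an unknown counting error. Of 356 called differences of named genes, 66 were larger by over 1.5 times with a pseudocount of 0.1.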

Other observations

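Of 27 axon guidance genes tested, 1 (NTN4) was higher and 5 were lower in clone 8 than in the other clones. The remaining 21 were not called. Over all genes 1.86% were higher and 2.56% lower. PLXNC1, a semaphorin receptor, was at 4.76, 4.04 and 2.84 TPM in clone 8, 3.66 to 4.81 in untreated cells and 6.00 to 57.8 in the others. SEMA3B, a secreted semaphorin, was at 14.9, 15.3 and 19.1 TPM, overlapping the 16.8 to 18.6 of untreated cells, against 28.6 to 54.3. Of 18 retinoid genes, 3 were lower than in the other clones: ALDH1A1, RDH10 and DHRS3. RDH10, which makes retinaldehyde, was at 8.35, 7.51 and 5.48 TPM against 6.79 (clone 7) to 93.8 (clone 11).

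Single markers of other cell types were higher in clone 8. PTPRC, the leukocyte antigen CD45, was at 4.88, 4.63 and 2.83 TPM against 1.15 to 1.36 in untreated cells and at most 2.23 in the mean of another clone, while CD3D, CD2, MS4A1, AIF1, C1QA and C1QB were at 0 in the clone 8 libraries. KRT18, a keratin of simple epithelia, was at 181, 186 and 293 TPM against 38.1 to 42.9 and 46.8 to 169, and KRT1 was at 0.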
